A study of Drosophila melanogaster with 38 samples.

Results

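Of 1669 MSL2 peaks on the autosomes of Drosophila melanogaster, 245 (14.7%) lay at an internal promoter, and they belonged to 225 protein-coding genes. A peak was counted when its midpoint lay within 500 bp of an annotated transcription start site (TSS) of a protein-coding gene and that TSS lay over 500 bp downstream of the first (5′-most) TSS of the same gene. Midpoints within 500 bp of protein-coding TSSs on both strands were set apart as divergent. The other autosomal peaks were 578 at first promoters, 237 at divergent promoters and 609 away from any protein-coding promoter. The peaks come from chromatin immunoprecipitation and sequencing (ChIP-seq) of dissected front parts of third-instar larvae, which hold many tissues. The series has 38 libraries, 19 from females and 19 from males, with 1 library for each combination of sex, genotype and target. MSL2 was precipitated through a FLAG tag in 2 of them, 1 of each sex, from larvae of genotype msl-2227/msl-2km that carried tub-Gal4 and UAS-msl-2::3Flag. In these mutants tagged MSL2 is made through Gal4 under the broadly active tubulin promoter, not from the native gene. The untagged control larvae were msl-2227/km over the CyO-GFP balancer, without Gal4 or transgene. The remaining libraries are of wild-type larvae (w1118 Oregon-R) and of larvae heterozygous (msl-2-delta-7/10 over CyO-GFP) or null (msl-2-delta-7 over msl-2-delta-10) for msl-2, and their values were not analysed here. The peak lists belong to the series as a whole and name no library, sex or threshold. The only score column held 0 in every row, so no peak has a height, and the depth behind a peak is unknown. There are therefore no replicates, and every p-value below describes where peaks lie within the lists, not variation between animals.

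MSL2, a RING-finger protein made in males, is part of the MSL complex, which brings H4K16 acetylation to the male X chromosome, and it reads GA-rich sequence through its CXC domain. Many fly genes are transcribed from several promoters, and an internal promoter starts a transcript that leaves out upstream exons and can change the N-terminus of the protein. Core promoters in flies fall into broad types. Housekeeping promoters often hold the DRE, bound by DREF, or motif 1, bound by M1BP, whereas developmental promoters more often hold an initiator or a TATA box, and GA repeats are bound by GAF and CLAMP.

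The stretches below show what GA-rich sequence at these internal promoters looks like, since of the words searched the GA repeat differed most between internal and divergent promoter peaks. They were taken by a fixed rule, as the longest exact GA repeats outside annotated exons near the midpoints on the arms that appear below. Genes with the most peaks that had such a repeat were added. The arm with the most internal promoter peaks (69) was not among these arms, so the stretches shown need not be the longest over all arms. Its absence here does not mean that it lacks such repeats. Of the 3 internal promoter peaks with a run of 16 or more bases, only that of Fhos is shown. Capitals mark the longest uninterrupted alternating run of each stretch (GAGAGAGA, AGAGAGAG or their reverse complements TCTCTCTC and CTCTCTCT, 8 or more bases). A shorter run, such as the one further downstream in BNIP3, is left in lower case. Each is given 5′ to 3′ on the strand of its gene, from the Release 6 genome (dm6), and up to 60 bases either side are shown where no exon intervenes. The Fhos run of 17 bases (chr3L:8766242-8766378, plus strand) began at the first base of a peak of 264 bp and was centred 132 bp upstream of the TSS.
Fhos: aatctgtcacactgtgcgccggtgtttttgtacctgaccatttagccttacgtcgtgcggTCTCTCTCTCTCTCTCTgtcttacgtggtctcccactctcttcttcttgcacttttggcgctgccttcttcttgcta
The BNIP3 run of 14 bases (chr3L:20517527-20517660, minus strand) lay inside a peak of 180 bp, 289 bp upstream of the TSS.
BNIP3: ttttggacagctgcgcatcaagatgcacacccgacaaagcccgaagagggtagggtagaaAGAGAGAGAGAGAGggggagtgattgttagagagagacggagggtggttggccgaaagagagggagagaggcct
The SNF4Agamma run of 14 bases (chr3R:21199065-21199180, plus strand) overlapped the edge of a peak of 150 bp, 50 bp upstream of the TSS.
SNF4Agamma: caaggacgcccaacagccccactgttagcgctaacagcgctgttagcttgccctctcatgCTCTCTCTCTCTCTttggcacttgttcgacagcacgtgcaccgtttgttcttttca
The mub run of 11 bases (chr3L:21879457-21879576, plus strand) lay inside a peak of 292 bp, 55 bp upstream of the TSS.
mub: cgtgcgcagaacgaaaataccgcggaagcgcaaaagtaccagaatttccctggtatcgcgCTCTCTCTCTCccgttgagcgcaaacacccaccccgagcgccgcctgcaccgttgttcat
The Syp run of 11 bases (chr3R:20778426-20778556, plus strand) lay inside a peak of 494 bp, 404 bp upstream of the TSS.
Syp: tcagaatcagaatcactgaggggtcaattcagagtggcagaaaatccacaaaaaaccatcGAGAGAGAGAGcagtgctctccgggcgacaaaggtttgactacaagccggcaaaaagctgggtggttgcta
The tai run of 10 bases (chr2L:9176381-9176497, plus strand) lay outside its peak of 283 bp, 74 bp downstream of the TSS and outside annotated exons.
tai: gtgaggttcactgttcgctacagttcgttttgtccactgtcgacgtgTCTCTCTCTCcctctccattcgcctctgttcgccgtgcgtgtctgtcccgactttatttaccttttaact
The PAN3 run of 9 bases (chr3L:3077825-3077928, plus strand) lay inside a peak of 168 bp, 40 bp upstream of the TSS.
PAN3: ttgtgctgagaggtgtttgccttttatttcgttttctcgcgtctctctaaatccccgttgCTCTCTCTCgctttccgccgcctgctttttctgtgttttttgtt

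Such unbroken runs were the exception. Within the 500 bp around the midpoint, 51 of the 245 peaks (20.8%, 95% Wilson interval 16.2 to 26.3) held a run of 8 or more bases and 3 held one of 16 or more. Of the 14389 promoters of autosomal protein-coding genes, 5.85% held a run of 8 or more bases and 0.931% one of 16 or more in windows of the same length centred on the TSS. The contrast with first promoter peaks was smaller. Exact copies of GAGAGAGA were 5.95 points more frequent around internal than around first promoter peaks, as given below. Wilson and other intervals given here cover counting error only. A run is a match of letters and was not tested for binding.

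Genes with several internal promoters could carry a peak at more than 1 of them. The 225 genes divided into 209 with 1 internal promoter peak, 13 with 2, 2 with 3 and 1 with 4. Eip75B, an ecdysone-induced nuclear receptor gene, had the 4. It has 7 promoters, each with 1 annotated transcript, spread over 103 kb of chromosome arm 3L. Its first 3 promoters, all within 5098 bp, had no peak, whereas the last 4 each had 1. These peaks lay at TSSs 38.7, 64.9, 93.3 and 102.9 kb downstream of the first TSS, with widths of 255, 237, 199 and 236 bp. A further 5 peaks in the gene lay away from its promoters. Syp, which encodes an RNA-binding protein that controls neural stem cell timing, had 3 peaks at its promoters 2, 3 and 4, counted from the first, 22.2, 23.1 and 26.3 kb downstream (494, 326 and 353 bp wide). Neither its first promoter nor its last had one. In grh, the gene of the epithelial transcription factor Grainy head, peaks lay at 4 of 5 promoters, namely the first (261 bp wide) and internal ones 1.1, 13.2 and 22.4 kb downstream (446, 179 and 254 bp). The promoter without a peak in grh, 1735 bp downstream, is the one with the most annotated transcripts (3 of 8).

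**Figure D1:**
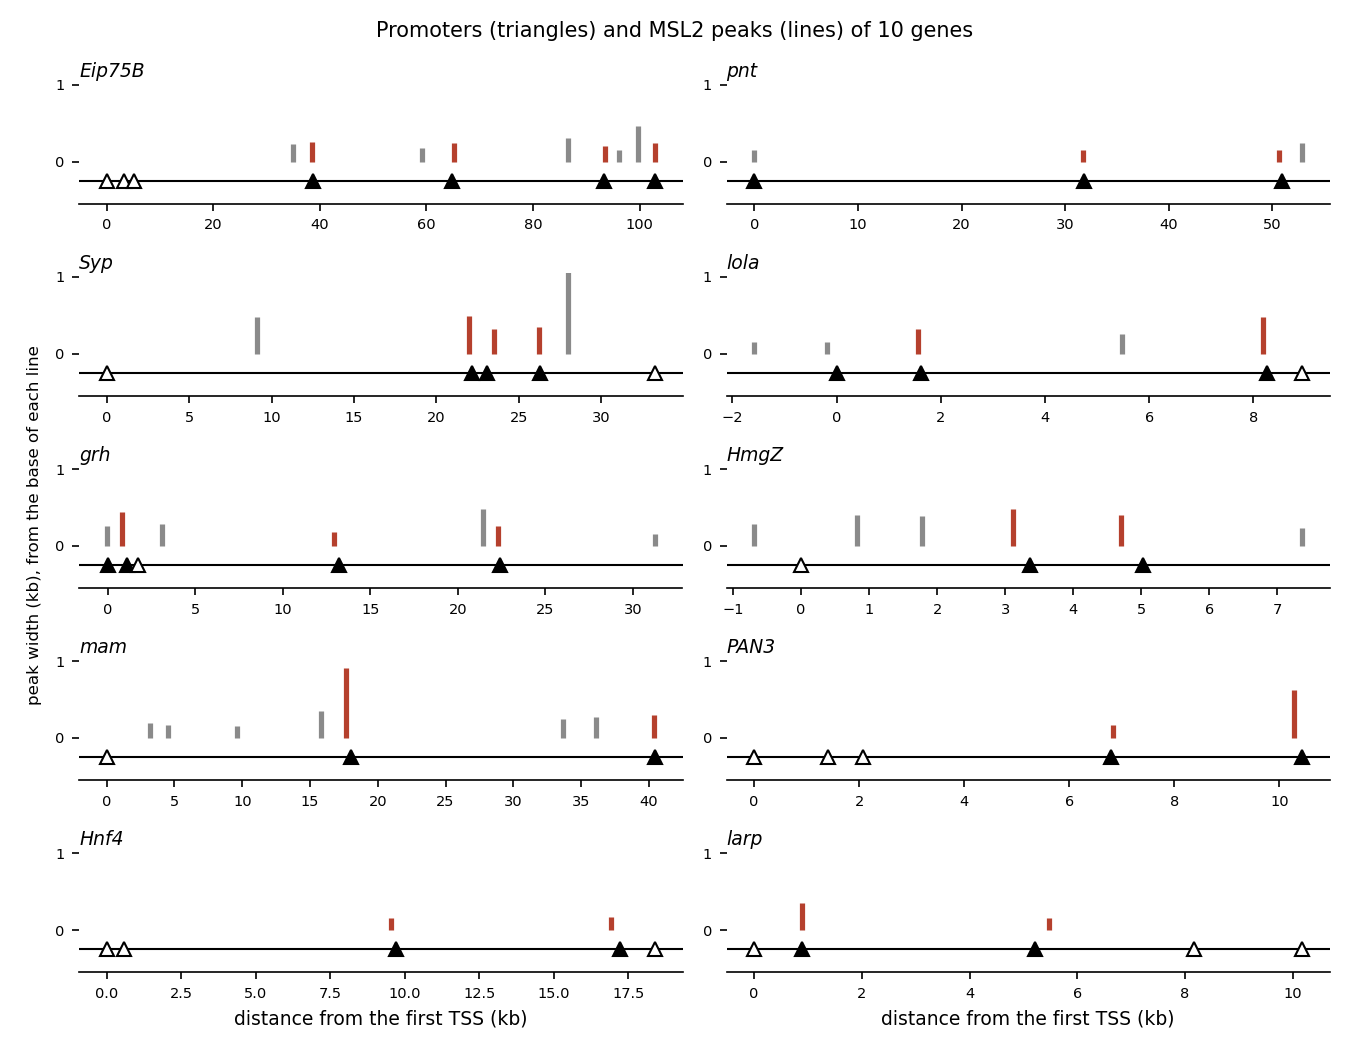
Promoters and MSL2 peaks along 10 genes, with the distance from the first TSS in kb on each horizontal axis and the width of each peak in kb as the height of its line above the base. Filled triangles are promoters with a peak within 500 bp and open triangles those without, red lines are internal promoter peaks of the gene and grey lines are other peaks, and in Eip75B the 3 promoters nearest the start are open and the last 4 are filled.

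Of the 13 genes with 2 peaks, the 7 with the largest summed width are described here. Mastermind (mam), a Notch coactivator, had 1 of 911 bp at promoter 2 and 1 of 298 bp at promoter 3, and none at the first. HmgZ, a high-mobility-group protein, likewise had peaks of 476 and 406 bp at promoters 2 and 3. CG9331 had the widest internal promoter peak of all, 1362 bp at promoter 2, and another of 237 bp at promoter 4. In PAN3, a subunit of a poly(A)-shortening complex, the first 3 promoters had no peak and promoters 4 and 5 had 1 each, 168 and 626 bp wide. The RNA-binding protein gene larp had peaks at promoters 2 and 3 of 5 (352 and 158 bp). In lola, a BTB zinc finger gene with 24 annotated transcripts, the first 3 of 4 promoters had a peak, and the internal 2 of these start 8 and 11 transcripts. Svil, the supervillin gene with 16 promoters, had a peak at promoters 1, 7 and 9. The one at promoter 1 (235 bp) was classed as divergent, near TSSs on both strands. Of all 16 genes with 2 or more internal promoter peaks, 6 also had a peak at the first promoter (grh, lola, Svil, Exn, pnt and Doa).

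Most internal promoter peaks lay well inside their genes. The TSS nearest the peak was a median of 4079 bp downstream of the first TSS (quartiles 1130 and 13212, range 501 to 108898). The distance was over 5 kb for 113 peaks (46.1%) and over 20 kb for 45 (18.4%), while 53 (21.6%) lay at 1000 bp or less. The farthest were in bbg, a PDZ-domain gene (109 kb), Eip75B (103 kb), fru, which directs male courtship behaviour (98.3 kb), pyd, a tight-junction scaffold (85.6 kb), and Svil (61.6 kb). Just inside the limit of 500 bp lay peaks of Mapmodulin (501 bp) and CG3651 (502 bp, a distance shared by zip), and just outside it peaks of CG9849 and akirin (497 bp each). Promoters were numbered from the first, and 170 peaks (69.4%) were at promoter 2, 44 at promoter 3 and 31 at a later one. By chromosome arm there were 69 peaks on 2R, 66 on 3R, 55 on 3L, 54 on 2L and 1 on chromosome 4, at eyeless (ey).

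The annotation places these promoters mostly in introns, as it does internal promoters without a peak. In 209 of 245 cases (85.3%, Wilson interval 80.3 to 89.2) the main TSS of the promoter lay in an intron of a transcript that starts upstream, beside 84.1% of the 2239 internal promoters without a peak. In 108 (44.1%, 38.0 to 50.3) the transcripts from that promoter used another start codon than those from upstream promoters, so the annotated protein differs at its N-terminus. The interval of the peak covered its nearest TSS in 166 cases (67.8%). A noncoding gene started within 500 bp of the midpoint in 9 cases. No transcripts were measured in these libraries, so which of the promoters were active in the larvae is not known from these data.

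The widths of internal promoter peaks did not differ past the threshold from those of other promoter peaks. Their median width was 239 bp (quartiles 181 and 335, range 150 to 1362), beside 228.5 bp for first promoter peaks and 222 bp for divergent ones. The narrowest peak was 150 bp wide in every class of autosomal peaks, so a width of 150 bp is the smallest in the list. The share wider than 231 bp, the median of all promoter peaks, was 53.9% of internal promoter peaks and 49.1% of first promoter peaks. The difference was 4.74 percentage points (95% Newcombe interval -2.72 to 12.1, Fisher's exact test, two-sided, adjusted p = 0.223). Against divergent peaks it was 6.20 points (-2.71 to 15.0, Fisher's exact test, adjusted p = 0.223). The 6 genes with the widest internal promoter peaks were CG9331 (1362 bp), Su(z)2, a Polycomb-group gene (1129 bp), ATPsynC, an ATP synthase subunit (1051 bp), lig, a growth regulator (1046 bp), l(3)neo38, a zinc finger gene (962 bp), and spi, the main EGF receptor ligand (961 bp). All 6 lay between 579 and 1728 bp downstream of the first TSS. In Su(z)2, ATPsynC and l(3)neo38 the same single peak was also within 500 bp of the first promoter.

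Internal promoter peaks lay upstream of their TSS more often than first promoter peaks did. Midpoints lay upstream of the nearest TSS in 181 of 245 internal promoter peaks (73.9%, Wilson interval 68.0 to 79.0) and in 293 of 578 first promoter peaks (50.7%, 46.6 to 54.7). The difference was 23.2 points (95% Newcombe interval 16.1 to 29.7, Fisher's exact test, two-sided, p = 5.23e-10). The median midpoint was 57 bp upstream of the TSS at internal promoters (quartiles 161 upstream and 3 downstream) and 2 bp upstream at first promoters. Midpoints 201 to 500 bp upstream made up 19.6% of the internal group and 4.84% of the first group, and those 201 to 500 bp downstream made up 7.35% and 13.8%. The rule removes from the first group peaks near a promoter on the opposite strand, and such promoters often lie just upstream of a first TSS. Without peaks that had an opposite-strand protein-coding TSS within 1500 bp, a comparison added after the data were seen, the shares were 75.5% of 204 and 57.3% of 410, and the difference was 18.2 points (10.3 to 25.4, Fisher's exact test, p = 8.58e-06). Against first promoter peaks of genes that also have an internal promoter, likewise added later, it was 23.9 points (14.3 to 33.0, Fisher's exact test, p = 1.10e-06).

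**Figure D2:**
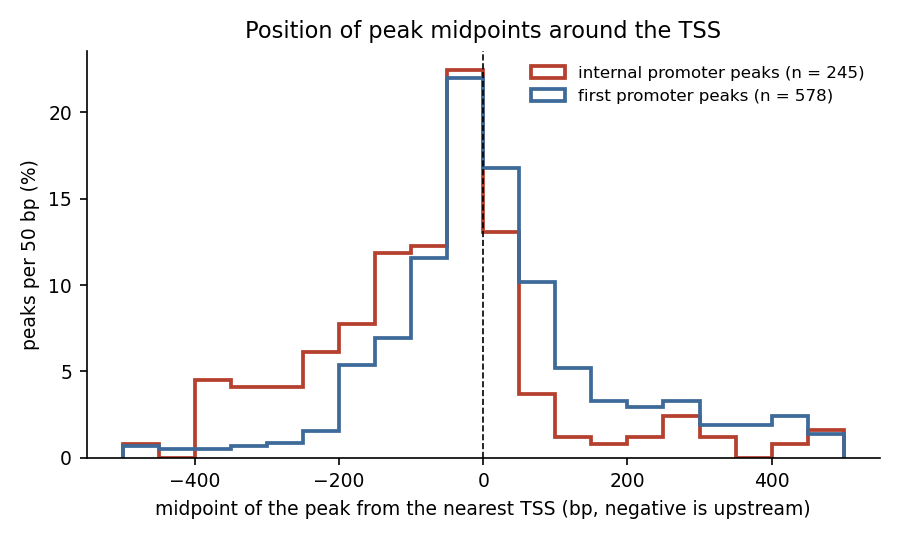
Midpoints of the 245 internal and 578 first promoter peaks around their nearest TSS, in bins of 50 bp (horizontal axis, negative is upstream), as a percentage of each group (vertical axis). The internal promoter line lies above the first promoter line in most upstream bins, and upstream of the TSS lie 73.9% and 50.7% of the midpoints.

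Internal promoters had a peak at a share close to that of the first promoters of multi-promoter genes. Promoters of either kind with an opposite-strand TSS within 500 bp were left out one by one, so not every gene gave both kinds. Of 2506 internal promoters without an opposite-strand TSS within 500 bp, 267 (10.7%) had a peak, and of 1328 first promoters of multi-promoter genes, 164 (12.3%) did. The difference was -1.69 points (95% Newcombe interval -3.90 to 0.40, Fisher's exact test, two-sided, p = 0.119). It passed the threshold of 0.05 in 3 alternatives, at -3.16 points when promoters had to be over 1000 bp apart (p = 0.00858, Fisher's exact test) and with windows of 250 or 1000 bp. Among first promoters of all autosomal genes, most of which have 1 promoter only, the share with a peak was lower, at 6.62% of 8507. Internal promoters exceeded that by 4.04 points (2.76 to 5.40, Fisher's exact test, p = 8.75e-11). The direction thus depended on which first promoters were compared. The 267 promoters and the 245 peaks are different counts. A peak can lie near more than 1 promoter of a gene. Of the 267 promoters, 249 had a peak of the 245, and the others had only peaks classed as first or divergent. By arm, the share of internal promoters with a peak was 10.8% on 2L, 10.7% on 2R, 10.5% on 3L and 11.1% on 3R, and 1 of 38 on chromosome 4 (2.63%, Wilson interval 0.466 to 13.5).

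Within genes, neither promoter had the peak more often by a margin that passed the test. Among 885 genes with exactly 1 internal promoter, 21 had a peak at both promoters, 70 at the first only, 62 at the internal only and 732 at neither. The internal promoter thus had the peak in 47.0% of the 132 genes with a peak at only 1 of them (exact interval 38.2 to 55.8, p = 0.543, two-sided exact binomial test). With all 1269 genes that have any internal promoter, where an internal peak has more chances to occur, the percentage was 54.4 (p = 0.196, exact binomial test). Over all 885 genes, a first promoter with a peak within 500 bp more often went with an internal promoter that had one. A single peak near both promoters was counted at each. The internal promoter had a peak in 21 of 91 genes with a first promoter peak (23.1%) and in 62 of 794 without (7.81%), a difference of 15.3 points (7.53 to 25.1, Fisher's exact test, p = 2.69e-05). For promoters over 2 kb apart the shares were 5 of 46 (10.9%) and 37 of 381 (9.71%), a difference of 1.16 points (-5.85 to 13.6, Fisher's exact test, p = 0.793). For promoters up to 2 kb apart they were 16 of 45 (35.6%) and 25 of 413 (6.05%), a difference of 29.5 points (16.9 to 44.2, Fisher's exact test, p = 9.48e-08), and in 10 of these 16 genes a single peak lay within 500 bp of both promoters. The odds ratios of near and far promoters differed (Zelen's exact test, p = 0.00162). A single peak can count at both near promoters. The tests that include such genes therefore cannot show whether separate peaks occurred together. The joint occurrence and the limit of 2 kb were looked at after the data were seen.

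On the X the internal promoters stood further below the first ones. There, peaks of the X list without high-affinity sites (HAS, the strongest MSL binding sites) lay at 87 of 642 internal promoters (13.6%). They lay at 74 of 321 first promoters of multi-promoter genes (23.1%), a difference of -9.50 points (-14.98 to -4.36, Fisher's exact test, p = 0.000329). The odds ratio of internal to first promoters was 0.846 on the autosomes and 0.523 on X. Their ratio was 1.62 (95% interval 1.08 to 2.42, two-sided p = 0.0189 by Woolf's test and 0.0228 by Zelen's exact test, which was added later). With a window of 250 bp it was 1.37 and missed the threshold (Woolf p = 0.161, Zelen's exact p = 0.171). The autosomal shares ran from 12.3% at promoter 1 through 11.4% at promoter 2 and 9.48% at promoter 3 to 8.91% at later ones, with overlapping intervals. The X shares were 23.1%, 13.2%, 14.7% and 13.3%.

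**Figure D3:**
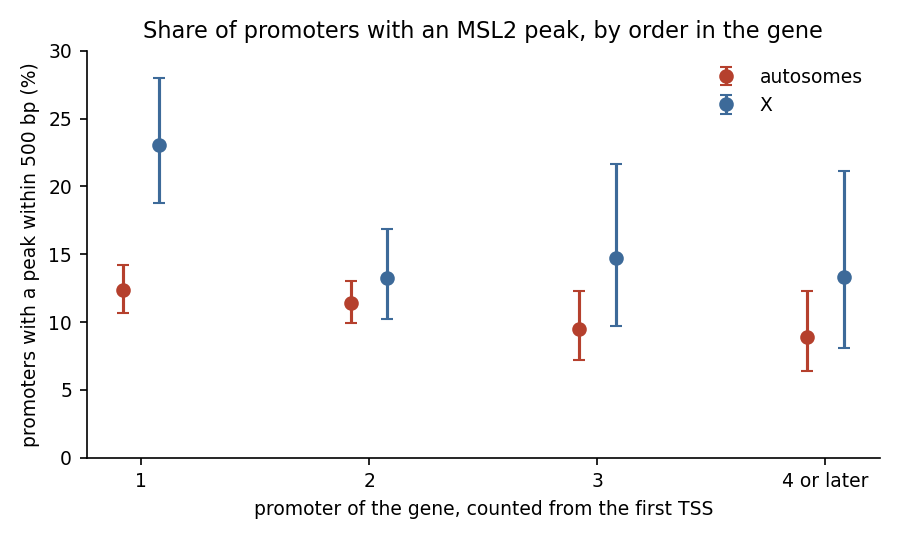
Share of promoters with an MSL2 peak within 500 bp, in percent, by the number of the promoter counted from the first TSS, for multi-promoter genes on the autosomes (red) and on X (blue), with 95% Wilson intervals as bars. The autosomal points lie between 8.91% and 12.3% and the X point at promoter 1 lies at 23.1%, above the other X points.

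The sequence around internal promoter peaks held more GA repeats and fewer housekeeping words. Words were searched on both strands in the 500 bp around the midpoint. A GA repeat (GAGAGAGA with up to 1 mismatch) was in 144 of 245 windows (58.8%, Wilson interval 52.5 to 64.8), in 277 of 578 at first promoter peaks (47.9%) and in 47 of 237 at divergent ones (19.8%), while 26.6% of all autosomal promoters held it in windows centred on the TSS. The difference from divergent peaks was 38.9 points (30.6 to 46.5, Fisher's exact test, two-sided, adjusted p = 1.59e-17). That from first promoter peaks was 10.9 points (3.39 to 18.1, adjusted p = 0.00819, Fisher's exact test). It shrank to 4.51 points (-5.21 to 14.2, adjusted p = 0.553, Fisher's exact test) when the first promoter peaks were limited to the 164 in genes that have an internal promoter, of which 54.3% held the repeat. Exact copies of GAGAGAGA gave smaller differences that also passed, 14.6 points from divergent (adjusted p = 2.93e-08, Fisher's exact test) and 5.95 from first promoter peaks (adjusted p = 0.0337, Fisher's exact test). The control word GGAAGGAA, with the same letters in another order and the same mismatch, was in 22.0% of internal windows, 24.7% of first windows and 25.8% of all promoters. Its difference from first promoter peaks was -2.70 points (-8.70 to 3.82, adjusted p = 0.507, Fisher's exact test).

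The CA repeat (CACACACA with up to 1 mismatch) was in 69.4% of internal windows, 64.5% of first and 49.4% of divergent ones, beside 41.9% of all promoters. Internal peaks exceeded divergent ones by 20.02 points (11.3 to 28.3, adjusted p = 3.27e-05, Fisher's exact test), and first promoter peaks by 4.85 points (-2.27 to 11.6, adjusted p = 0.264, Fisher's exact test). Both repeats together were in 104 of the 245 windows (42.4%) and neither in 35 (14.3%). The A tract (AAAAAAAA with up to 1 mismatch) was in 73.9% of internal, 75.4% of first and 80.6% of divergent windows, and neither difference passed the threshold (Fisher's exact test, adjusted p = 0.660 and 0.125).

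Both housekeeping words were rarer at internal promoter peaks. The DRE (TATCGATA) was in 1 of 245 windows (0.408%, Wilson interval 0.0721 to 2.28), that of aux, the fly auxilin gene. It was in 28 of 578 first windows (4.84%), 33 of 237 divergent windows (13.9%) and 7.67% of all promoters. The differences were -4.44 points (-6.53 to -2.06, adjusted p = 0.00192, Fisher's exact test) and -13.5 points (-18.5 to -9.25, adjusted p = 2.45e-09, Fisher's exact test). The core of motif 1 (GGTCACAC), which shares the letters CACAC with the CA repeat, was in 14 internal windows (5.71%), 13.1% of first ones, 13.9% of divergent ones and 7.19% of all promoters. Its difference was -7.43 points from first promoter peaks (-11.2 to -3.00, adjusted p = 0.00336, Fisher's exact test) and -8.21 points from divergent ones (-13.7 to -2.92, adjusted p = 0.00637, Fisher's exact test). Both differences from first promoter peaks held in genes that have an internal promoter, at -5.08 points for the DRE (adjusted p = 0.00458, Fisher's exact test) and -7.09 for motif 1 (adjusted p = 0.0359, Fisher's exact test). In windows of 200 bp the differences of motif 1 were -3.81 points from first and -5.21 from divergent promoter peaks and missed the threshold.

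**Figure D4:**
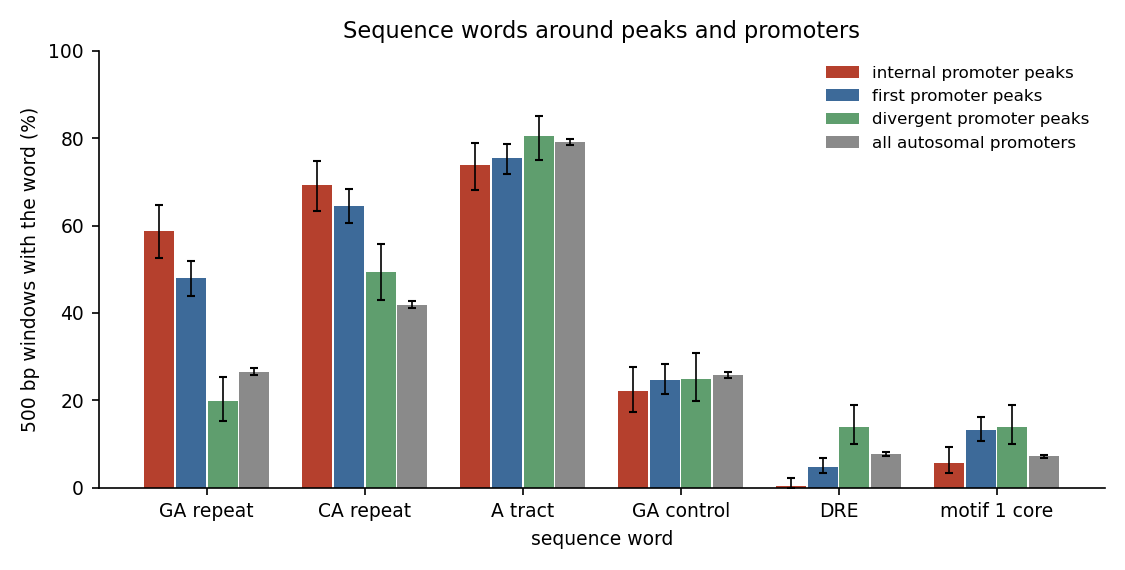
Share of 500 bp windows that hold each of 6 sequence words, in percent, around internal (red), first (blue) and divergent (green) promoter peaks and around all autosomal promoters with or without a peak (grey), with 95% Wilson intervals as bars. The GA repeat runs from 58.8% at internal to 19.8% at divergent promoter peaks, and the DRE is in 0.408% of internal windows.

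Internal promoters with a peak also differed from the internal promoters without one. The windows here were centred on the TSS, for 267 promoters with and 2239 without a peak. The GA repeat was in 57.7% of those with a peak and 36.1% of those without, a difference of 21.6 points (15.3 to 27.7, Fisher's exact test, two-sided, adjusted p = 2.01e-10). The CA repeat was in 71.5% and 51.0%, a difference of 20.5 points (14.4 to 26.0, adjusted p = 8.20e-10, Fisher's exact test). Where a gene had internal promoters of both kinds, the CA difference was 10.8 points and missed the threshold (adjusted p = 0.135, Fisher's exact test). The motif 1 core was scarce in both but more frequent with a peak, at 12 of 267 (4.49%) against 1.38% (adjusted p = 0.00296, Fisher's exact test). So motif 1 was rarer at internal than at first promoter peaks, and still more frequent at internal promoters with a peak than at those without. In genes with internal promoters of both kinds its difference was 1.61 points (adjusted p = 0.575, Fisher's exact test). The DRE was in 1 of 267 and in 1.79% of those without, which did not pass (-1.41 points, adjusted p = 0.240, Fisher's exact test), whereas with peaks counted within 1000 bp the difference was -1.58 points and passed (adjusted p = 0.0422, Fisher's exact test).

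Core promoter letters and annotation gave further differences. An initiator core (TCAGT or TCATT on the gene's strand from -10 to 10 bp of the TSS) was in 34.5% of internal promoters with a peak, 24.9% of those without and 18.5% of all promoters. The difference of 9.58 points (3.84 to 15.7, adjusted p = 0.00296, Fisher's exact test) passed the threshold. The TATA box letters (TATAAA on the gene's strand from -45 to -15) were in 3.75%, 4.91% and 8.50%, and the difference between the first pair did not pass (adjusted p = 0.651, Fisher's exact test). Promoters with 2 or more annotated transcripts made up 50.9% of those with a peak and 35.7% of those without (15.3 points, 8.96 to 21.5, adjusted p = 7.09e-06, Fisher's exact test). A promoter with several TSSs offers a wider window for a peak. With peaks counted at the main TSS only, an alternative added later, the difference was 15.0 points (adjusted p = 9.70e-06, Fisher's exact test). The main TSS is the one with the most transcripts, and the cause of the difference was not tested. The share over 5 kb from the first TSS was 43.1% and 42.5% (0.552 points, -5.60 to 6.88, adjusted p = 0.977, Fisher's exact test). Another start codon was used in 43.4% and 46.8% (-3.32 points, -9.49 to 3.02, adjusted p = 0.495, Fisher's exact test). With peaks counted within 1000 bp this difference was -6.70 points and passed (adjusted p = 0.0422, Fisher's exact test). The A tract, the control word and the position in an intron (86.1% and 84.1%) did not pass either (adjusted p from 0.260 to 1, Fisher's exact test).

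Internal promoter peaks more often had company. Another autosomal peak lay within 5 kb of 95 of them (38.8%, Wilson interval 32.9 to 45.01), of 27.2% of first promoter peaks and of 23.6% of divergent ones. The differences were 11.6 points (4.63 to 18.7, Fisher's exact test, adjusted p = 0.00123) and 15.1 points (6.88 to 23.1, Fisher's exact test, adjusted p = 0.00079). Against first promoter peaks of genes with an internal promoter the difference was 8.29 points (-1.19 to 17.3, adjusted p = 0.0923, Fisher's exact test). The first promoter of the same gene had a peak within 500 bp in 67 of the 245 cases (27.3%). This share is not a count of further peaks. It includes genes such as ATPsynC, where the internal promoter peak itself lay within 500 bp of the first promoter.

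Internal promoter peaks were counted in 16 gene lists. A gene with more internal promoters has more chances of such a peak, and the lists differ in their numbers of promoters. For these lists, which were chosen with earlier results of these data known and are described by counts only, the base is the 1746 autosomal genes with an internal promoter, of which 225 (12.9%) had an internal promoter peak. In the list of ecdysone response genes and nuclear receptors 6 of 15 had one. Ecdysone is the steroid that triggers moulting and metamorphosis, and besides Eip75B the list gave EcR, the hormone's receptor, at the last of its 3 promoters, 37.2 kb downstream (305 bp wide). Its target Eip74EF, an ETS factor, had a peak of 588 bp at its internal promoter 42.7 kb downstream, within 9 peaks in and around the gene. Hnf4, a nuclear receptor of fat metabolism, had peaks of 162 and 166 bp at promoters 3 and 4 of 5. None of these 4 genes had a peak at its first promoter. The other members were tai, a receptor coactivator, and svp, a nuclear receptor.

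Of the signalling pathways, Notch had 3 of 5, the EGF receptor pathway 3 of 9, Dpp and activin 2 of 6 and insulin and TOR 2 of 6. The Notch members besides mam were numb, an inhibitor of Notch (187 bp, 12.4 kb downstream), and the corepressor gro (291 bp, 1.1 kb). In the EGF receptor pathway the ligand spi, the receptor Egfr and the nuclear effector pnt each had a peak. That of Egfr was 199 bp wide at its internal promoter, 24.2 kb downstream. All 3 promoters of pnt had a peak, with the internal ones 31.9 and 50.9 kb downstream. Both were 150 bp wide, the smallest width in the list. The ligand dpp had a peak of 155 bp at its last promoter (26.4 kb) and shn, a Dpp-pathway transcription factor, 1 of 682 bp (45.5 kb). The insulin receptor InR had a peak at its first promoter and another of 306 bp at promoter 3, 29.1 kb downstream, among 10 peaks in and around the gene, and Pdk1, a kinase of the same pathway, had 1 of 297 bp. No internal promoter peak was found in the 5 Wingless, 3 Hedgehog and 2 Hippo pathway genes with an internal promoter.

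The lists of transcription and chromatin factors were counted next. Of 8 BTB zinc finger genes 6 had an internal promoter peak, among them lola, ttk (923 bp), rib (296 bp) and fru (290 bp). The others were chinmo and psq. The median number of promoters was 3.5 in this list, beside 2 for all genes with an internal promoter. By promoter, 9 of its 21 internal promoters had a peak, beside 294 of 2640 for all genes. The 2640 include promoters with an opposite-strand TSS within 500 bp, which the 2506 above leave out. The homeodomain and patterning list gave 7 of 14. Its Hox members were Scr, with a peak at both promoters (308 bp at the internal one, 1.5 kb downstream), and Abd-B, at the last of 6 promoters (331 bp, 38.0 kb). The wing selector ap had 1 of 492 bp, and eya, inv, ey and grh completed the list. The Polycomb and trithorax groups gave 7 of 13, namely Su(z)2, tara (689 bp), E(Pc) (469 bp), tou (336 bp), kis, psq and skd, of which psq is also in the BTB list. In and around tara lay 10 peaks in all.

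In the list of RNA-binding proteins 8 of 25 had an internal promoter peak, with Syp and larp first, then pAbp, the poly(A)-binding protein (381 bp), and the helicase gene Rm62 (284 bp). The cytoskeleton gave 4 of 12, with the profilin gene chic (826 bp), Tm1, a tropomyosin (363 bp), the spectraplakin shot (305 bp) and zip, the nonmuscle myosin heavy chain (155 bp). Metabolic enzymes gave 3 of 11, which were ACC of fatty acid synthesis (430 bp) and the glycolytic Pgk (342 bp) and Pfk (150 bp). Cell adhesion and axon guidance gave 2 of 10, Sema2a (166 bp) and Lar (150 bp). Of 16 genes for ion channels and synaptic proteins 0 had one, beside 12.9% of all genes with an internal promoter. None of their 26 internal promoters had a peak, beside 294 of 2640 for all genes. None of the 16 first promoters had one either. With so few genes and promoters, a count of 0 is not far from these shares, and it was not tested.

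**Figure D5:**
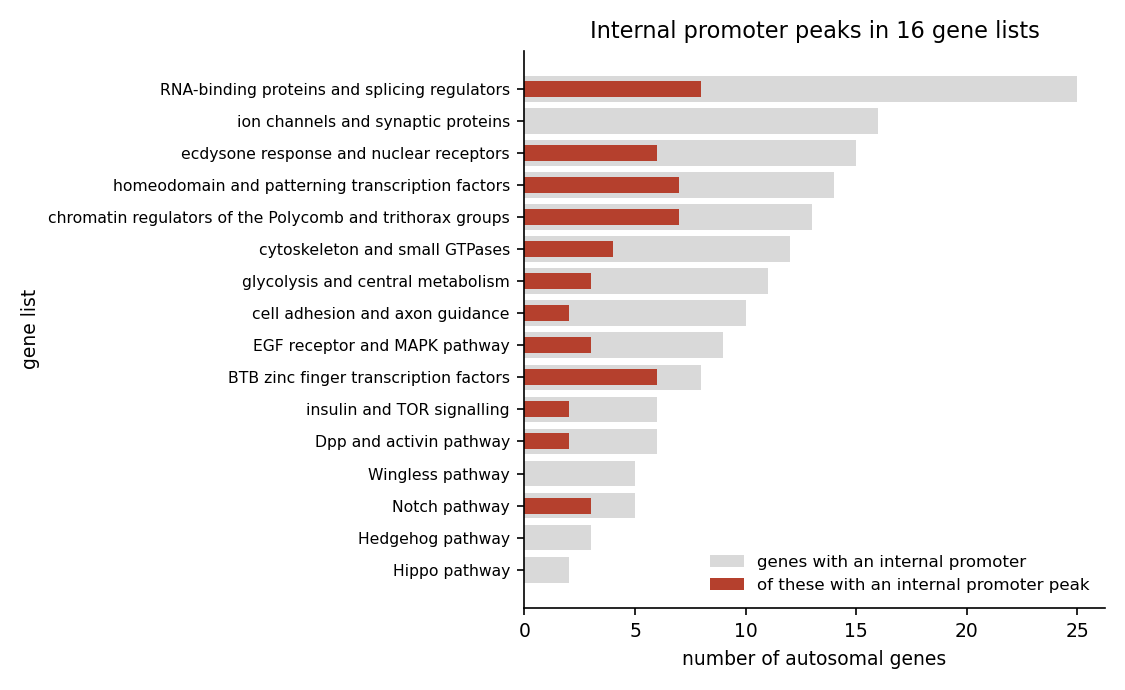
Number of autosomal genes with an internal promoter (grey bars) and, of these, with an internal promoter peak (red bars) in 16 gene lists. The red bar covers 6 of 8 BTB zinc finger genes and 0 of 16 ion channel and synaptic genes, beside 12.9% of all 1746 genes with an internal promoter. The bars count genes and do not allow for differing numbers of internal promoters.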

How the data were processed

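ChIP-seq libraries of male and female third-instar larvae were processed by the submitters. Their processing notes list MACS2 (2.1.1.20160309.0), Bowtie2 (2.3.0.1) and bedtools, and as builds BDGP6 and dm6. In the sources used here the role of each tool, the control, the threshold and any pooling were not given. The deposited score column of the autosomal list is 0 in all 1685 rows, so peaks could not be ranked, and 16 rows off chromosomes 2, 3 and 4 were left out. The 3 lists give chromosome, start and end, and no per-sample column was present.

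Starts were converted to 1-based positions. Genes came from Ensembl release 115 (BDGP6.54) and sequence from RefSeq Release 6 (dm6). TSSs of a gene over 500 bp apart were separate promoters. Shares were compared with Fisher's exact test, genes with the exact binomial test and odds ratios with Woolf's test and, added later, Zelen's exact test (Python 3.11.15, SciPy 1.17.1), at a threshold of 0.05 with Benjamini-Hochberg adjustment over 12 word tests, over 12 promoter features and over the pairs of classes. Peaks and promoters were counted as independent, although some share a gene. Scripts were tested on simulated data.

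Members, lists and tests were chosen with earlier results of these data known. Named were the 10 genes with the most internal promoter peaks (ties by summed width), the 6 with the widest, the 5 farthest from the first TSS, up to 4 members of each list and 2 peaks on each side of the 500 bp limit. Other genes named were chosen after their values were seen, as remaining members of a list or as single cases. Of the list symbols, 3 matched through an older symbol and 4 were not matched.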

Additional observations from a re-analysis of the deposited data

Results flagged for a closer look

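The deficit of internal relative to first promoters differed between the chromosomes. The odds ratio of internal to first promoters was 1.62 times as high on the autosomes as on X (95% interval 1.08 to 2.42, two-sided p = 0.0189 by Woolf's test and 0.0228 by Zelen's exact test). The shares behind it were 10.7% and 12.3% on the autosomes and 13.6% and 23.1% on X. The X and autosomal lists are separate deposited files, and the sources used here do not say whether both were called in the same way. With the HAS on X added the ratio was 1.60 (p = 0.0177 by Woolf's test and 0.0208 by Zelen's exact test).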

How the results depend on the processing

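Of 159 alternative values for 33 results, 129 kept their direction and their side of the threshold (or, for the count of peaks, stayed within 1.5 times). The 129 include alternatives that could not change a difference. The DRE and motif 1 allowed no mismatch from the start, and limiting the first promoter peaks does not touch word comparisons with divergent peaks. Protein-coding transcripts alone gave values identical to the main ones. The number of internal promoter peaks fell from 245 to 156 when the TSS had to be over 2000 bp downstream and to 162 for peaks of at least 200 bp. Internal against first promoters differed by -1.99 points with a 250 bp window, -2.84 with 1000 bp and -3.16 with promoters over 1000 bp apart, all past the threshold, and by 4.04 against the first promoters of all genes. The within-gene percentage was 54.4 with all genes that have an internal promoter. The ratio of odds ratios was 1.37 with a 250 bp window. Against first promoter peaks of genes with an internal promoter, chosen after the data were seen, the GA difference was 4.51 points, the CA difference -0.73 and that of neighbouring peaks 8.29, none past the threshold. Against divergent peaks, neighbours within 10 kb differed by 7.06 points, below the threshold. In genes with internal promoters of both kinds the CA difference was 10.8 points. With a 1000 bp window the differences between internal promoters with and without a peak passed for the DRE (-1.58 points) and another start codon (-6.70).

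Reversals otherwise concerned differences that never passed the threshold. The A tract gave 4.52 (first) and 3.87 points (divergent) without mismatches and 0.26 in whole peaks (first). GGAAGGAA gave 2.26 (first) and 2.15 (divergent) in 200 bp windows and 3.05 and 2.43 in whole peaks. With and without a peak, TATAAA gave 2.03 and the distance over 5 kb -8.55 in genes with both kinds, the distance gave -5.48 with a 1000 bp window, and the intron position -0.26 with a 250 bp window and -0.45 in genes with exactly 1 internal promoter. Leaving out 2L, 2R, 3L or 3R changed no call of internal against first promoters. Libraries could not be paired by replicate, because none enters a test. With the depth and peak heights unknown, a promoter without a peak may lie below the authors' limit of detection. The causes of the changes were not tested.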

Other observations

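The HAS list holds 24 intervals on autosomes, of which 4 met the rule for an internal promoter peak, 9 lay at first promoters, 1 at a divergent promoter and 10 away from promoters. The 4 were in bru2 (323 bp wide, 22.1 kb downstream of the first TSS), CAP (349 bp, 34.0 kb), psq (599 bp, 25.8 kb) and hth (640 bp, 25.3 kb), which encode an RNA-binding protein, a vinculin-associated adaptor, a BTB transcription factor and a homeodomain protein. Their midpoints lay 108, 48, 260 and 203 bp upstream of the nearest TSS. CAP and psq also had 1 internal promoter peak each in the autosomal list, CAP 2.9 kb and psq 11.1 kb downstream. The division between the lists is that of the authors, and the values are given without a test.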
